A study of Homo sapiens with 8 samples.

Results

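The genes described here encode 8 enzymes of the pentose phosphate pathway and of NADPH supply: *PGLS*, *PGD*, *RPIA*, *RPE*, *TKT*, *TALDO1*, *ME1* and *IDH1*. They were taken by name as a list, but earlier results of these data were known when the list was chosen. All 8 symbols were matched to 1 identifier each among the 57815 gene identifiers of the expression files. RNA-seq had been performed on ABC1 and HCC4006, a pair of established human non-small cell lung cancer lines. The paper describes their KEAP1-NRF2 system as intact, with NRF2 that is low until it is induced. Cells received DEM (diethylmaleate) at 100 μM, or DMSO alone as vehicle, for 16 h. DEM is an electrophile that inhibits KEAP1, the protein through which NRF2 is degraded, and NRF2 is a transcriptional activator of cytoprotective genes. There were 2 biological replicate libraries, numbered 0 and 1, in each of the 4 groups (ABC1 with vehicle, ABC1 with DEM, HCC4006 with vehicle, HCC4006 with DEM), which makes 8 libraries. Each comparison therefore describes 1 line, and a difference between the lines is a difference between 1 ABC1 culture set and 1 HCC4006 culture set.

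The pentose phosphate pathway branches from glycolysis at glucose 6-phosphate. Its oxidative branch transfers electrons to NADP+ and so yields NADPH, the cofactor with which glutathione reductase and thioredoxin reductase restore their substrates, and ends in ribulose 5-phosphate. Its non-oxidative branch interconverts sugar phosphates and returns them to glycolysis or provides ribose 5-phosphate for nucleotides. Cytosolic malic enzyme and isocitrate dehydrogenase are further sources of NADPH outside the pathway. Several of these enzyme genes are known as NRF2 targets in cancer cells.

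The values are FPKM (fragments scaled by transcript length and by library size), which allows levels to be set side by side between genes. The sum of FPKM in a library lay between 627085 and 737534. Mitochondrial transcripts made up 20.2% of this sum in ABC1 DEM replicate 1 and 13.6% to 16.5% in the other libraries. The epithelial markers *EPCAM*, *KRT8*, *KRT18*, *KRT19* and *CDH1* were high in every library (92.4 FPKM or more), although *KRT8* and *KRT18* were called lower with DEM in HCC4006 (log2 fold change -0.46 and -0.40, adjusted p = 0.0158 and 0.0103 by limma). Of the markers of other cell types, the leukocyte gene *PTPRC* was at 0.192 FPKM or less, the fibroblast gene *COL1A1* was at 3.58 to 7.64 FPKM, and *PECAM1* was not matched. Of the lung lineage markers, *NKX2-1* and *NAPSA* were expressed in HCC4006 (12.9 FPKM or more) but were below 1 FPKM in each ABC1 library, and *SFTPB* was below 1 FPKM in all libraries, so the lung lineage of ABC1 is not visible in these markers. Totals of reads were not used here. The depth behind each gene is given by the base mean in the authors' deposited tables, the mean over a line's 4 libraries of counts scaled to a common depth. It lay between 172 (*RPIA* in HCC4006) and 18733 (*TKT* in ABC1) for the 8 genes, except for *ME1* in ABC1, with an authors' base mean of 15.1.

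In HCC4006 cells, DEM raised *PGD*, *TALDO1*, *TKT* and *ME1*, each to between 1.63 and 2.16 times the vehicle mean, and lowered *RPE* to 0.671 times. *PGLS*, *RPIA* and *IDH1* did not pass the test. In ABC1 cells, none of the 7 genes tested passed it, and *ME1* was too low to be tested. For each line, log2(FPKM + 1) was compared between DEM and vehicle with limma over all genes averaging 1 FPKM or more, and a gene was called at a Benjamini-Hochberg adjusted p under 0.05. Of the 8 genes, 4 were called higher with DEM in HCC4006, where 8.45% of all 13542 genes tested were called higher, and 1 was called lower, where 10.7% of all genes were. The median log2 fold change of the 8 genes in HCC4006 was 0.41, against -0.025 over all genes tested. In ABC1, 0 of 7 were called by limma and 1 of 7 had an unadjusted p under 0.05. Of the 12635 genes tested in ABC1, 1.20% were called in either direction and 21.9% had an unadjusted p under 0.05. Their median log2 fold change there was 0.16, against -0.017 over all genes tested. The median standard error of a log2 fold change over all genes was 0.17 in ABC1 and 0.12 in HCC4006, and the smallest change that was called was 0.80 and 0.22 in this order. A change of the size seen for *TALDO1* or *TKT* in HCC4006 would thus have been under the smallest one called in ABC1. As the libraries are bulk RNA, fewer cells expressing a gene and less of its RNA per cell cannot be told apart. With 2 libraries against 2, an exact permutation test cannot give a two-sided p under 0.33, so the p-values are those of limma.

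**Figure D1:**
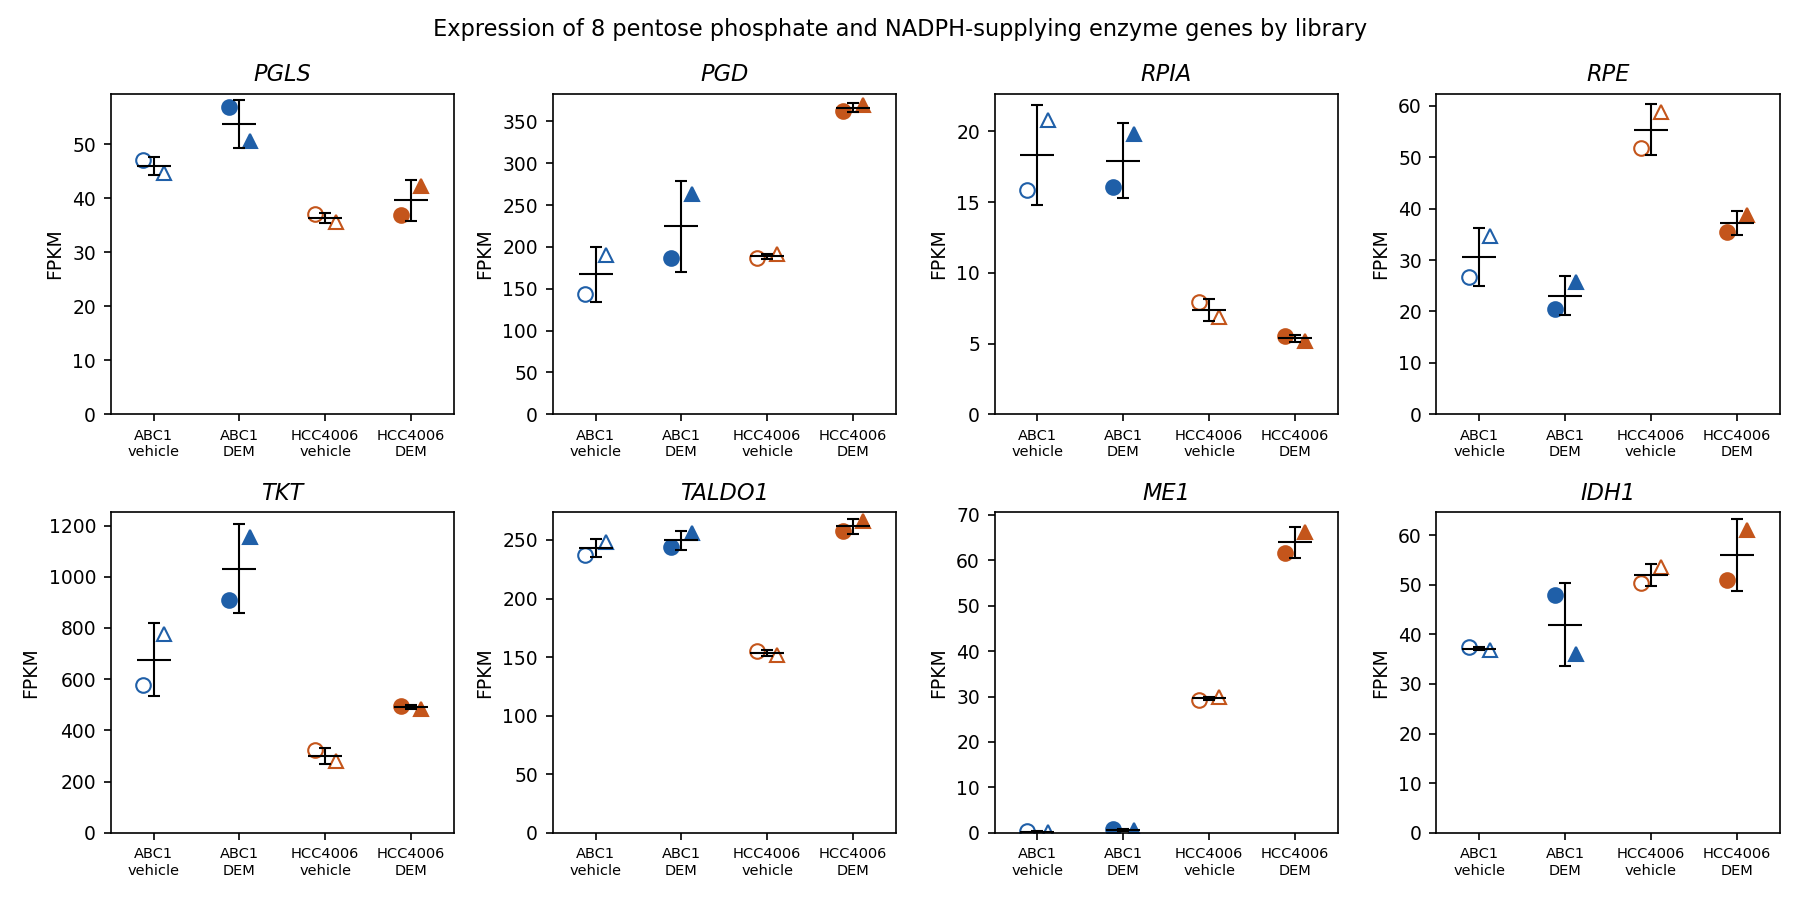
Expression of the 8 genes in FPKM (vertical axes, each from 0) in the 4 groups. Circles are replicate 0 and triangles replicate 1, open symbols are vehicle and filled symbols DEM, and the bars give the mean ± SD of the 2 libraries. In HCC4006 the DEM libraries of *PGD*, *TKT*, *TALDO1* and *ME1* lie above both vehicle libraries and those of *RPIA* and *RPE* below them, whereas *TALDO1* in ABC1 is at 238 to 256 FPKM in all 4 libraries.

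The oxidative branch is represented by *PGLS* and *PGD*. *PGD* (ENSG00000142657.16, chromosome 1 of GRCh37 from 10458649 to 10480568, plus strand) encodes 6-phosphogluconate dehydrogenase, which forms ribulose 5-phosphate and releases NADPH. Its level in HCC4006 was 187 and 191 FPKM with vehicle and 363 and 370 FPKM with DEM. The groups did not overlap, and the spread within each was small (189 ± 3.03 and 366 ± 5.09 FPKM, SD, n = 2 each). *PGD* rose 1.94-fold on the FPKM means, a log2 fold change of 0.95 (standard error, SE, of 0.06 and adjusted p = 0.001, limma). In ABC1, *PGD* was at 144 and 191 FPKM with vehicle and at 186 and 263 FPKM with DEM. These groups overlapped, since replicate 0 with DEM was below replicate 1 with vehicle. The log2 fold change in ABC1 was 0.42 (95% confidence interval -0.13 to 0.97, adjusted p = 0.335 by limma).

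*PGLS* (ENSG00000130313.2, chromosome 19 from 17622445 to 17632097, plus strand) encodes 6-phosphogluconolactonase, which supplies the substrate of the *PGD* enzyme. In HCC4006 it was at 37.05 and 35.65 FPKM with vehicle and at 36.9 and 42.3 FPKM with DEM, so the groups overlapped. The log2 fold change of *PGLS* was 0.12 there (95% confidence interval -0.11 to 0.35, adjusted p = 0.397 by limma). In ABC1, the vehicle libraries had 47.1 and 44.7 FPKM of *PGLS* and the DEM libraries 56.9 and 50.7 FPKM. Both DEM libraries were higher, but the difference of 0.22 on the log2 scale was not called (95% confidence interval -0.09 to 0.53, adjusted p = 0.363 by limma). The intervals thus leave room for an increase of *PGLS* in either line that is smaller than that of *PGD* in HCC4006.

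Ribulose 5-phosphate is passed on by an isomerase and an epimerase, encoded by *RPIA* and *RPE*. *RPE* (ENSG00000197713.10, chromosome 2 from 210867289 to 210886984, plus strand) encodes ribulose-phosphate 3-epimerase, which makes xylulose 5-phosphate. It was the only one of the 8 genes that was called lower. In HCC4006, its level was 51.9 and 58.9 FPKM with vehicle and 35.5 and 38.9 FPKM with DEM, a log2 fold change of -0.56 (SE 0.10, adjusted p = 0.0151 by limma). This call was lost without the DEM replicate 0 of HCC4006 (adjusted p = 0.0705 by limma), without its vehicle replicate 1 (adjusted p = 0.0829), in a model of all 8 libraries (adjusted p = 0.0596) and without the expression minimum (adjusted p = 0.136). In ABC1, *RPE* had 26.7 and 34.6 FPKM with vehicle and 20.5 and 25.7 FPKM with DEM, both lower than either vehicle library. The log2 fold change there was -0.39 (95% confidence interval -0.84 to 0.06, adjusted p = 0.282 by limma).

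*RPIA* (ENSG00000153574.8, chromosome 2 from 88991191 to 89050446, plus strand) encodes ribose 5-phosphate isomerase, which makes the ribose for nucleotides. In HCC4006, *RPIA* had 7.92 and 6.84 FPKM with vehicle and 5.55 and 5.16 FPKM with DEM. The DEM libraries lay below the vehicle libraries, with a log2 fold change of -0.40 (95% confidence interval -0.70 to -0.09) that missed the threshold after adjustment (adjusted p = 0.0761 by limma). In ABC1, the values were 15.8 and 20.8 FPKM with vehicle and 16.0 and 19.8 FPKM with DEM, which overlapped. The log2 fold change of *RPIA* in ABC1 was -0.024 (95% confidence interval -0.48 to 0.43, adjusted p = 0.955 by limma).

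*TKT* and *TALDO1* encode the carbon-shuffling enzymes of the non-oxidative branch. *TKT* (ENSG00000163931.11, chromosome 3 from 53258728 to 53290068, minus strand) encodes transketolase, which moves two-carbon units between sugar phosphates, and had the highest level of the 8 genes in all 8 libraries. In HCC4006 it rose from 324 and 280 FPKM with vehicle to 496 and 485 FPKM with DEM. The ratio of the means was 1.63 and the log2 fold change 0.70 (SE 0.08, adjusted p = 0.00601 by limma), a call that was lost without the expression minimum (adjusted p = 0.105). In ABC1, *TKT* had 577 and 777 FPKM with vehicle and 909 and 1155 FPKM with DEM. Both DEM libraries were above both vehicle libraries, and the ratio of the means was 1.53. The log2 fold change of 0.61 in ABC1 was close to that in HCC4006, but its standard error was larger (0.21), and it was not called after adjustment (95% confidence interval 0.09 to 1.14, unadjusted p = 0.0288, adjusted p = 0.178 by limma).

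*TALDO1* (ENSG00000177156.6, chromosome 11 from 747415 to 765012, plus strand) encodes transaldolase, which transfers a dihydroxyacetone group and links the branch to fructose 6-phosphate. HCC4006 had 155 and 152 FPKM of *TALDO1* with vehicle and 257 and 266 FPKM with DEM. The groups were far apart relative to their spread, with a ratio of the means of 1.71 and a log2 fold change of 0.77 (SE 0.06, adjusted p = 0.00202 by limma). In ABC1, it was at 238 and 248 FPKM with vehicle and at 244 and 256 FPKM with DEM. The replicates of ABC1 were close to each other for this gene (243 ± 7.59 and 250 ± 8.11 FPKM, SD, n = 2 each), and the groups overlapped. Its log2 fold change in ABC1 was 0.04 (95% confidence interval -0.27 to 0.35, adjusted p = 0.877 by limma), an interval whose upper end lies below the lower end of the one in HCC4006 (0.62 to 0.92).

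*ME1* (ENSG00000065833.7, chromosome 6 from 83920121 to 84140770, minus strand) encodes the cytosolic malic enzyme, which forms pyruvate and NADPH from malate. In HCC4006, *ME1* was at 29.3 and 29.9 FPKM with vehicle and at 61.6 and 66.3 FPKM with DEM. This was the highest ratio among the 8 genes in that line, 2.16, with a log2 fold change of 1.08 (SE 0.08, adjusted p = 0.00163 by limma). ABC1 cells expressed almost none, with 0.331 and 0.209 FPKM under vehicle and 0.738 and 0.518 FPKM under DEM. Both DEM libraries of ABC1 were nevertheless higher, at 2.32 times the vehicle mean. As its mean was under 1 FPKM, *ME1* did not enter the main test in ABC1. When the minimum was left out, its log2 fold change was 0.36 in ABC1 (95% confidence interval -0.001 to 0.71, adjusted p = 0.381 by limma), on a scale where the added 1 FPKM makes the change of such a low gene smaller than its ratio.

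*IDH1* (ENSG00000138413.9, chromosome 2 from 209100953 to 209130798, minus strand) encodes the cytosolic NADP+-dependent isocitrate dehydrogenase. In HCC4006, *IDH1* had 50.4 and 53.5 FPKM with vehicle and 50.8 and 61.1 FPKM with DEM, and the groups overlapped. In ABC1, the values were 37.4 and 36.9 FPKM with vehicle and 47.9 and 36.0 FPKM with DEM, which overlapped as well, since the DEM libraries lay on either side of the vehicle libraries. The log2 fold change of *IDH1* was 0.10 in HCC4006 (95% confidence interval -0.16 to 0.36, adjusted p = 0.529 by limma) and 0.16 in ABC1 (95% confidence interval -0.25 to 0.57, adjusted p = 0.613 by limma).

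Counted over the genes, both DEM libraries were above both vehicle libraries for 4 of 8 genes in HCC4006 and for 2 of the 7 tested in ABC1, against 29.3% and 25.5% of all genes tested in these lines. Both DEM libraries lay under both vehicle libraries for 2 of 8 genes in HCC4006 and 1 of the 7 tested in ABC1, against 35.3% and 28.2% of all genes tested. In ABC1, *TKT*, *PGD*, *TALDO1*, *RPE* and *RPIA* were each higher in replicate 1 than in replicate 0 under both treatments. *PGLS*, *IDH1* and *ME1* were each lower in replicate 1. The FPKM sums of ABC1 were also larger in replicate 1 (697394 with vehicle and 737534 with DEM) than in replicate 0 (628775 and 627085). The library with the larger mitochondrial share, ABC1 DEM replicate 1, also had the highest levels of *TKT*, *PGD* and *TALDO1* in that line. Without this library, the log2 fold change in ABC1 was 0.44 for *TKT*, 0.17 for *PGD* and -0.55 for *RPE*. Without vehicle replicate 0, these values were 0.40, 0.215 and -0.57 in the same order. They moved the other way without DEM replicate 0 (0.79, 0.66 and -0.23) and without vehicle replicate 1 (0.83, 0.62 and -0.21), and none was called by limma in any of the 4 cases.

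**Figure D2:**
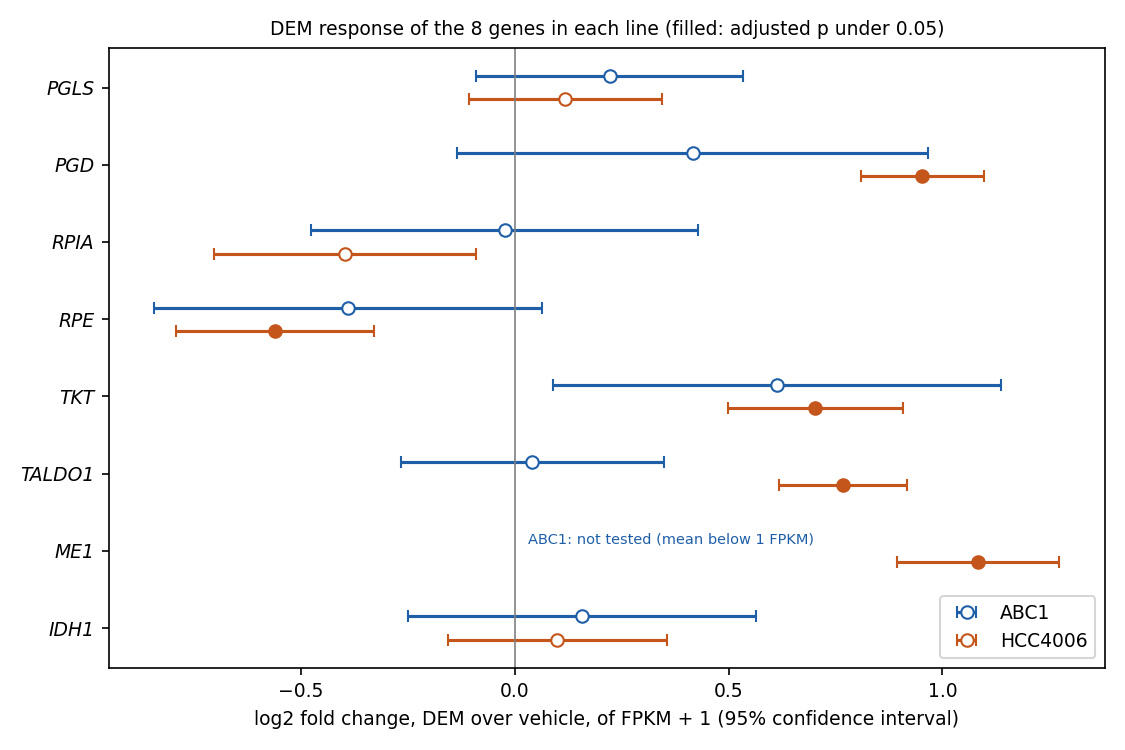
Log2 fold change of FPKM + 1 (horizontal axis), DEM over vehicle, of the 8 genes in ABC1 (blue) and HCC4006 (orange). Points are limma estimates with 95% confidence intervals, filled where the adjusted p is under 0.05. In HCC4006, 4 genes lie to the right of 0 and *RPE* to the left with filled points. All ABC1 points are open, and the ABC1 interval of *TALDO1* ends at 0.35, below the start of its HCC4006 interval at 0.62.

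Whether the response to DEM differed between the lines was tested for each gene as an interaction in a model of all 8 libraries. Of the 7 genes above the minimum in both lines, 0 were called by limma and 1 had an unadjusted p under 0.05. Over all 13682 genes, 0.636% were called in either direction (0.307% higher and 0.329% lower in HCC4006) and 15.1% had an unadjusted p under 0.05. *TALDO1* came closest, with a difference of 0.73 on the log2 scale (HCC4006 minus ABC1, 95% confidence interval 0.453 to 1.002, unadjusted p = 0.000356, adjusted p = 0.0535 by limma). It was called when the libraries were scaled by the median of ratios (adjusted p = 0.0291) and without the expression minimum (adjusted p = 0.0199), and the estimate stayed between 0.695 and 0.761 under every setting tried. *ME1* was above the minimum only through HCC4006, so its difference is given with no test. It was 0.73 on the log2 scale of FPKM + 1 and 0.13 with a pseudocount of 0.1. On FPKM itself the increase was 2.32-fold in ABC1 and 2.16-fold in HCC4006. The difference for *PGD* was 0.54 (95% confidence interval -0.07 to 1.15, adjusted p = 0.394 by limma), and that for *TKT* was 0.09 (95% confidence interval -0.49 to 0.66, adjusted p = 0.915 by limma). The differences of *PGLS*, *RPIA*, *RPE* and *IDH1* were -0.10, -0.37, -0.17 and -0.06 in this order, with adjusted p-values by limma between 0.517 and 0.934. That calls were made in HCC4006 alone does not show that the lines responded differently for these genes.

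The basal levels of these genes differed between the lines. With vehicle, *TKT* and *RPIA* were more than 2-fold higher in ABC1 and *ME1* was about 110-fold higher in HCC4006. Of the 7 genes above the minimum in both lines, 2 were called higher in HCC4006 and 4 lower in the limma contrast of the vehicle groups, but 66.9% of all 13682 genes tested were called in this comparison (36.8% higher and 30.2% lower in HCC4006), so a count of 6 of 7 says little about these genes. The vehicle mean of *TKT* was 677 ± 141 FPKM in ABC1 and 302 ± 31.2 FPKM in HCC4006 (SD, n = 2 each), a log2 difference of -1.15 (SE 0.17, adjusted p = 0.000668 by limma). *RPIA* had 18.3 ± 3.52 FPKM in ABC1 and 7.38 ± 0.759 FPKM in HCC4006 (SD, n = 2 each), a log2 difference of -1.20 (adjusted p = 0.000371 by limma). *TALDO1* was 1.58-fold higher in ABC1 (log2 difference -0.66, adjusted p = 0.000243 by limma). After DEM, the level of *TALDO1* in HCC4006 (257 and 266 FPKM) was above the level in ABC1 with either treatment (238 to 256 FPKM). *RPE* was 1.81-fold higher in HCC4006 (log2 difference 0.84, adjusted p = 0.0022 by limma). *ME1* had 0.270 ± 0.0857 FPKM in ABC1 and 29.6 ± 0.393 FPKM in HCC4006 (SD, n = 2 each), a log2 difference of 4.59 on the scale of FPKM + 1, which is given with no test because *ME1* was above the minimum in HCC4006 alone. Smaller differences were those of *IDH1* (log2 difference 0.47, adjusted p = 0.0235) and *PGLS* (-0.33, adjusted p = 0.0259), both of which were lost in limma when any 1 vehicle library was left out, that of *IDH1* also without the minimum (adjusted p = 0.0846). *PGD* did not pass the test (log2 difference 0.19, 95% confidence interval -0.24 to 0.62, adjusted p = 0.395 by limma).

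Under vehicle, the order of the mean levels in ABC1 was *TKT*, *TALDO1*, *PGD*, *PGLS*, *IDH1*, *RPE*, *RPIA* and *ME1*, and no neighbours in this order overlapped between their libraries. In HCC4006 with vehicle, the order was *TKT*, *PGD*, *TALDO1*, *RPE*, *IDH1*, *PGLS*, *ME1* and *RPIA*, in which *RPE* and *IDH1* overlapped. DEM left the order in ABC1 as it was, except that *TALDO1* and *PGD* then overlapped. In HCC4006 with DEM, *ME1* stood in the fourth place and *RPE* in the seventh, with *PGLS* and *RPE* overlapping.

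**Figure D3:**
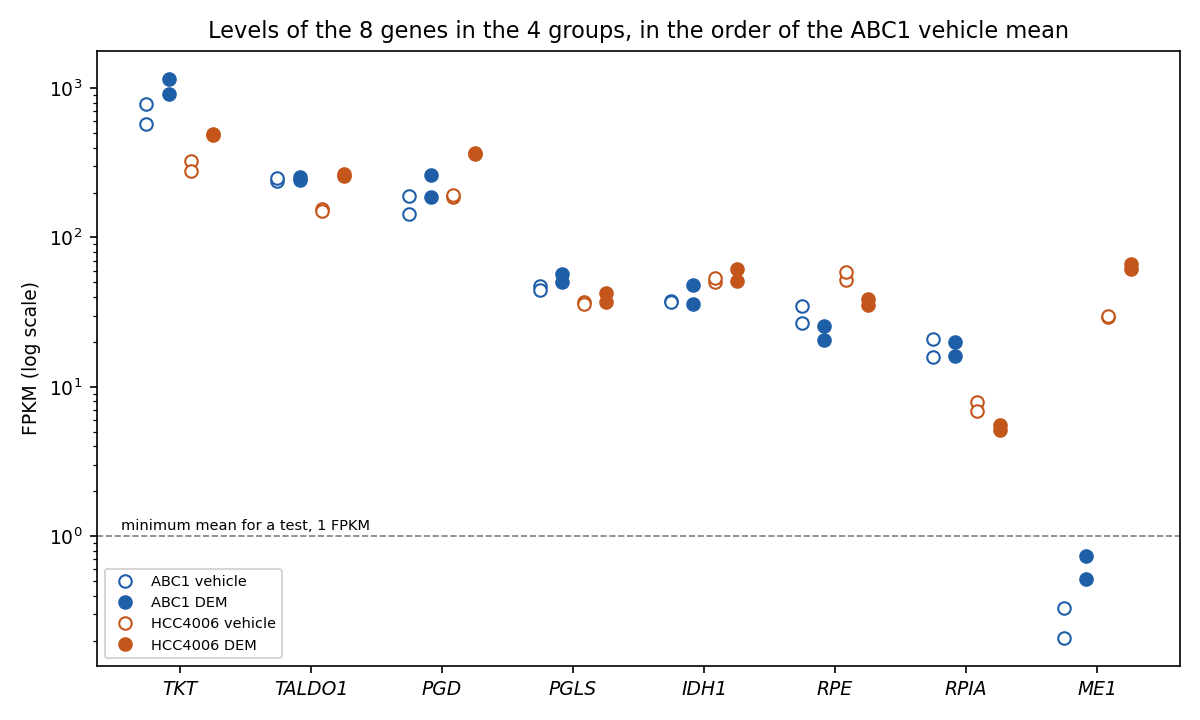
FPKM of the 8 genes in each library (vertical axis, log scale), in the order of the vehicle mean in ABC1. Blue is ABC1 and orange HCC4006, open symbols are vehicle and filled symbols DEM. *ME1* is below the dashed line of 1 FPKM in all ABC1 libraries and at 29.3 FPKM or more in HCC4006, while *TKT* and *RPIA* are higher in ABC1.

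The promoters of all 8 genes were searched for the core of the antioxidant response element, the DNA site that NRF2 binds together with a small MAF protein. The windows, from 250 bases before to 50 bases after the start of each gene, were those of RefSeq on GRCh38.p14, and all 8 genes were found there, *IDH1* with 2 windows. The motif TGACNNNGC was searched on both strands, where it reads GCNNNGTCA on the other strand. At least 1 match was found in 4 of the 9 windows, 1 each of *ME1*, *PGD*, *RPE* and *IDH1*, against 13.3% of all 35116 windows. The windows of *ME1* and *PGD*, which rose with DEM in HCC4006, and of *RPE*, which fell, are shown 5′ to 3′ along the gene, with the matches in capitals. They lie at chr6:83431002-83431301 (minus strand) for *ME1*, at chr1:10398814-10399113 (plus strand) for *PGD* and at chr2:210002388-210002687 (plus strand) for *RPE*.
ME1: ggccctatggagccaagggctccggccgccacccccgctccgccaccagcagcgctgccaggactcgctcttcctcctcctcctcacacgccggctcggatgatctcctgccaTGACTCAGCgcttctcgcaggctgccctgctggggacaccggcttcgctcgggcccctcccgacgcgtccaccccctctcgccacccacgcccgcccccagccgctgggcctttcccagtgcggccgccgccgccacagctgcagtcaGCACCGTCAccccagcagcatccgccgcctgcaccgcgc
PGD: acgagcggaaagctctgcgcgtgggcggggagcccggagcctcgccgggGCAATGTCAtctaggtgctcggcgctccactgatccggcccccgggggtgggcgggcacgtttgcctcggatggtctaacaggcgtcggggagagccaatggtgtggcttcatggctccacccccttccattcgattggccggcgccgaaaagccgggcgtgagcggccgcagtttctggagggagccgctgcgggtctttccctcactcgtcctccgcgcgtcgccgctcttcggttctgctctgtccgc
RPE: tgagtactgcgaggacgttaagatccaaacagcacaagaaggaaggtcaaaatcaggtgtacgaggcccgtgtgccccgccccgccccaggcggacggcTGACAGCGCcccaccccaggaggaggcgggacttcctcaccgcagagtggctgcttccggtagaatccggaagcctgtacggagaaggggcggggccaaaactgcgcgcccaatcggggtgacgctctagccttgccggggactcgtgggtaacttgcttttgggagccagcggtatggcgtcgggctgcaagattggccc

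*ME1* held 2 matches, TGACTCAGC at positions -137 to -129 from the start and, on the other strand, GCACCGTCA at positions 12 to 20. The match of *PGD*, GCAATGTCA, spanned positions -201 to -193 from the start and that of *RPE*, TGACAGCGC, positions -151 to -143. In *IDH1*, which was not called in either line, TGACTCCGC lay at positions -143 to -135 in the window of the start that lies further upstream. The windows of *TKT* and *TALDO1*, which rose in HCC4006, and of *PGLS* and *RPIA* held no match. The matches were thus found in genes that rose, fell and did not pass the test, and they describe the letters of these windows only, not binding.

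Among further pentose phosphate and ribose phosphate enzyme genes, those that were called in HCC4006 fell. They were *PRPS1*, *PRPS2* and *PGM2*, whereas *H6PD*, *DERA*, *RBKS*, *SHPK* and *PGM1* were tested there and not called. Of 11 further pentose phosphate and ribose phosphate enzyme genes, 8 were tested in HCC4006, of which 0 were called higher and 3 lower by limma, against 10.7% of all genes called lower, and 3 of the 8 had an unadjusted p under 0.05. Their median log2 fold change was -0.25 there and -0.25 in ABC1. *PRPS1* and *PRPS2* encode phosphoribosyl pyrophosphate synthetases, which activate ribose 5-phosphate for nucleotide synthesis. *PRPS1* fell in HCC4006 from 76.5 and 72.3 FPKM to 50.2 and 51.4 FPKM (log2 fold change -0.54, adjusted p = 0.00781 by limma), and *PRPS2* from 42.1 and 39.2 to 26.2 and 26.0 FPKM (log2 fold change -0.62, adjusted p = 0.00747 by limma). *PGM2*, a phosphopentomutase gene, had a log2 fold change of -0.31 (adjusted p = 0.0424 by limma), a call that was lost under 8 of 11 alternatives (adjusted p up to 0.377). In ABC1, 0 of 6 were called by limma and 1 of 6 had an unadjusted p under 0.05. This was *PRPS1*, with 34.3 and 37.6 FPKM with vehicle and 17.5 and 23.4 FPKM with DEM (log2 fold change -0.80, adjusted p = 0.0852 by limma). The related genes *TKTL1*, *TKTL2* and *RPEL1* were at 0.171 FPKM or less in every library, and the *RPE* pseudogenes *RPEP1* to *RPEP6* were listed at 0, so few reads of *TKT* and *RPE* were assigned to these copies. *IDH1-AS1*, which lies within *IDH1* on the opposite strand (chromosome 2 from 209119938 to 209120905), was at 1.26 FPKM or less.

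Among 12 other genes of NADPH supply, 3 were called higher and 2 lower with DEM in HCC4006, of 12 tested, against 8.45% and 10.7% of all genes, with a median log2 fold change of 0.003. *MTHFD2*, a mitochondrial enzyme of folate metabolism, rose from 96.7 and 96.1 FPKM to 145 and 152 FPKM (log2 fold change 0.62, adjusted p = 0.00428 by limma). *NADK*, the cytosolic kinase that makes NADP+ from NAD+, rose by 0.56 on the log2 scale (adjusted p = 0.0347 by limma), and *ALDH1L2*, a mitochondrial folate enzyme that forms NADPH, by 0.55 (adjusted p = 0.032 by limma). Both calls were lost under 5 of 11 alternatives (adjusted p up to 0.24 and 0.144), including each setting without a DEM library of HCC4006 and without its vehicle replicate 1. *MTHFD1*, a cytosolic enzyme of folate metabolism, fell by 0.59 on the log2 scale (adjusted p = 0.0135 by limma), and *IDH2*, the mitochondrial relative of *IDH1*, which was named after its value was seen, fell by 0.43 (adjusted p = 0.0309 by limma). The call of *MTHFD1* was lost without the minimum, without DEM replicate 0 and without vehicle replicate 1 of HCC4006 (adjusted p up to 0.126). The call of *IDH2* was not followed under the alternatives. In ABC1, 0 of 9 tested were called by limma and 4 of 9 had an unadjusted p under 0.05, against 21.9% of all genes. There *MTHFD2* had a log2 fold change of 0.72 (adjusted p = 0.0789 by limma) and *MTHFD1* of -0.57 (adjusted p = 0.105 by limma).

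The highest median among the lists was that of enzymes that spend NADPH. Of 15 such genes, 9 were called higher and 1 lower in HCC4006 out of 15 tested, where 8.45% of all genes were called higher, and 5 were called higher and 0 lower in ABC1 out of 13 tested, where 0.768% of all genes were called higher. The median log2 fold change of these genes was 0.89 in HCC4006 and 0.41 in ABC1, against -0.025 and -0.017 over all genes. *TXNRD1*, which encodes cytosolic thioredoxin reductase, rose by 2.40 in HCC4006 and by 1.81 in ABC1 on the log2 scale (adjusted p = 8.78e-05 and 0.0183 by limma), the latter call being lost without the minimum and without either vehicle library of ABC1 (adjusted p up to 0.201). *AKR1C1*, an aldo-keto reductase gene whose family shares similar sequences, rose by 1.99 and 3.25 in the same order (adjusted p = 0.00181 and 0.00428 by limma), and both calls were lost without the minimum (adjusted p = 0.0583 and 0.11). With vehicle, *AKR1C1* was below 1 FPKM in ABC1, so it passed the minimum there through its DEM libraries. The 5 genes called higher in ABC1 include *AKR1C1*. *CBR3*, a carbonyl reductase gene, rose by 2.26 in HCC4006 (adjusted p = 0.000524 by limma) and had a log2 fold change of 0.935 in ABC1 (adjusted p = 0.0668 by limma). *AKR1B10* rose by 1.67 in HCC4006 (adjusted p = 0.00085 by limma) and was below the minimum in ABC1.

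Glycolysis enzymes served as the comparison for the shared sugar phosphates. Of 15 genes, 2 were called higher and 2 lower in HCC4006, which is close to the 8.45% and 10.7% of all genes, and the median log2 fold change was -0.09. *HK1*, a hexokinase gene, rose by 0.31 (adjusted p = 0.0273 by limma) and *PFKP*, a phosphofructokinase gene, by 0.31 (adjusted p = 0.0233 by limma). *PGAM1*, a phosphoglycerate mutase gene, fell by 0.32 (adjusted p = 0.0319 by limma), and *LDHA*, a lactate dehydrogenase gene, fell by 0.28 (adjusted p = 0.0372 by limma), all on the log2 scale. Each of these 4 calls was lost under 7 of 11 alternatives, with adjusted p-values by limma up to 0.153 for *HK1*, 0.46 for *PFKP*, 0.223 for *PGAM1* and 0.446 for *LDHA*. In ABC1, 0 of 14 were called by limma, 1 of 14 had an unadjusted p under 0.05, and the median was -0.007.

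**Figure D4:**
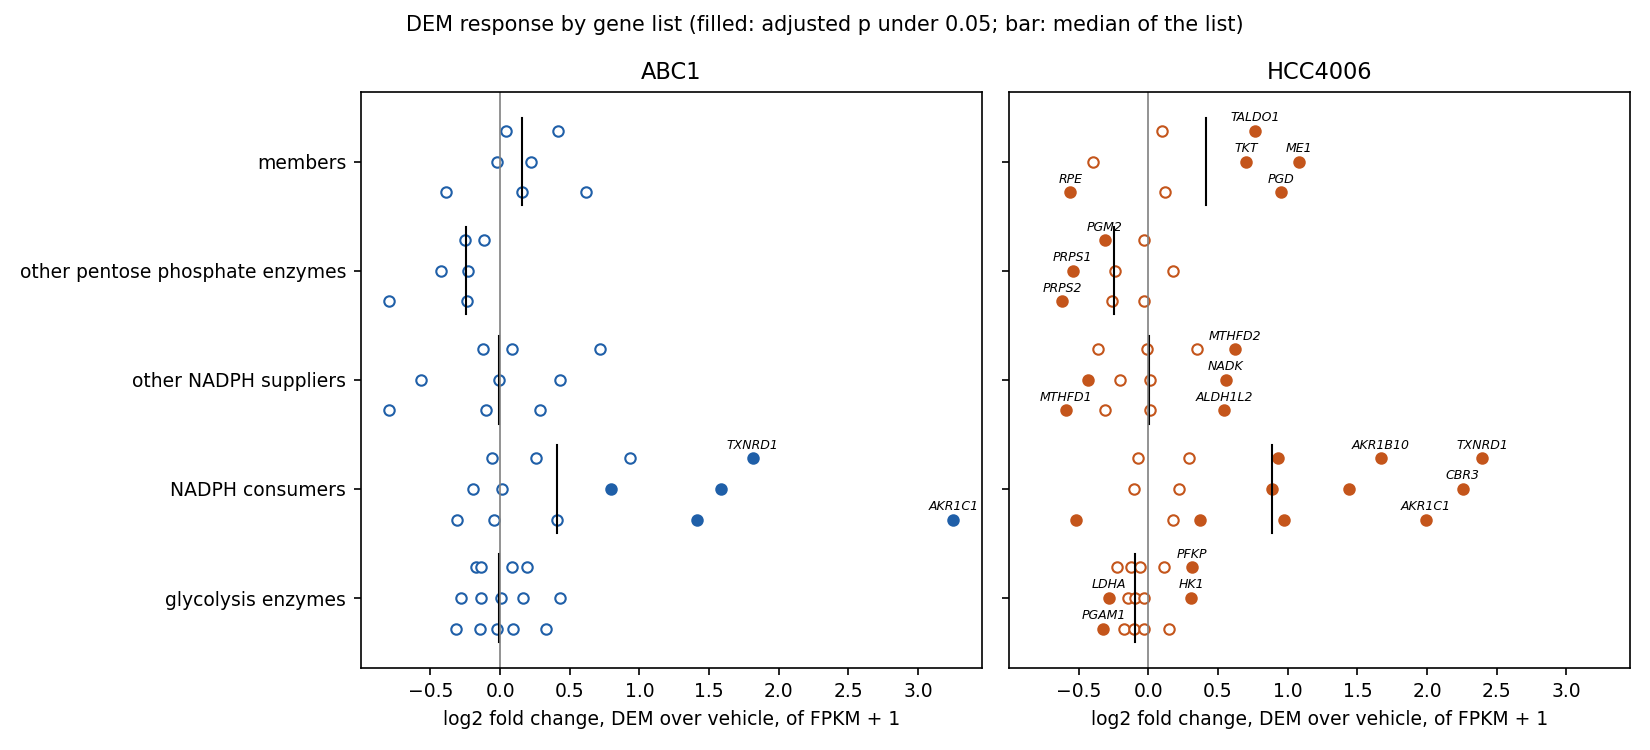
Log2 fold change of FPKM + 1 (horizontal axes), DEM over vehicle, by gene list in ABC1 (left) and HCC4006 (right). Each point is a tested gene, filled where the adjusted p is under 0.05, and black bars are list medians. In HCC4006 the median of the 8 genes is 0.41, between that of the NADPH consumers (0.89) and those of the other lists (0.003 or less).

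For each of the 8 genes, the 2 genes with the most similar profile of log2(FPKM + 1) over the 8 libraries were looked up among 11539 genes averaging 1 FPKM or more in both lines. The Pearson correlations lay between 0.969 and 0.999 and are a description, because the 8 libraries share the difference between the lines. *TKT* was most like *HSPA1A* and *PCYT1A* (r = 0.994 and 0.992), and *PGD* most like *ASPH* and *SMURF1* (0.986 and 0.981). *TALDO1* was most like *CNN3* (0.987) and *ZRANB1* (0.975), and *RPE* most like *HNRNPAB* and *SLC29A1* (0.997 and 0.996). *RPIA* was nearest to *NUSAP1* and *MYBL2* (0.998 and 0.997), *PGLS* to *ZNF808* and *APTR* (0.992 and 0.991), *ME1* to *STK17A* and *USP3* (both 0.999) and *IDH1* to *SLC35F5* and *ACBD3* (both 0.969).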

How the data were processed

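The analysed RNA-seq libraries came from ABC1 and HCC4006 cultures with DEM or vehicle, grouped by their titles, with 2 libraries per group. The FPKM values were deposited by the authors, 1 per gene identifier and library, from polyA-selected, strand-specific libraries aligned to hg19. The paper names TopHat and Cufflinks, whereas the submitters' processing notes name cutadapt 1.15, STAR 2.5.3a, Cuffnorm, HTSeq and DESeq2. FPKM values hold no counts, so no counting interval is given. From the authors' deposited comparison tables only the base mean (a normalized signal) was used, not their fold changes and p-values. Symbols were found for 55534 of 57815 identifiers. Positions are from GENCODE on GRCh37, the assembly of hg19.

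With limma 3.58.1 in R 4.3.3, log2(FPKM + 1) was fitted with a mean-variance trend to genes averaging 1 FPKM or more, per line for DEM against vehicle and over 8 libraries for the interaction and the vehicle levels. P-values were Benjamini-Hochberg adjusted over all genes tested and called under 0.05. Adjusted p-values in the text are from these fits unless an alternative is named. The steps were tested on simulated data. Named list genes are the up to 4 per list with the largest change among those called in either line. The 8 genes, the lists, tests and alternatives were chosen with earlier results of these data known. Alternatives were a pseudocount of 0.1, no minimum or 5 FPKM, median-of-ratios scaling, no trend, a replicate block, a model of all 8 libraries and leaving out each library.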

Additional observations from a re-analysis of the deposited data

Results flagged for a closer look

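None of the 8 genes was singled out by the test of the difference between the lines. Among the NADPH-consuming genes, the response to DEM differed between the lines in opposite directions for a pair of genes. *CBR3* rose more in HCC4006, by 1.32 on the log2 scale (adjusted p = 0.0378 by limma), from 6.21 and 7.32 to 34.7 and 37.3 FPKM there and from 3.69 and 2.90 to 6.86 and 7.49 FPKM in ABC1. *AKR1C1* rose more in ABC1, with a difference of -1.26 (HCC4006 minus ABC1, adjusted p = 0.0388 by limma). It went from 0.863 and 0.834 to 15.8 and 17.5 FPKM in ABC1 and from 1.35 and 1.01 to 8.04 and 7.25 FPKM in HCC4006. With vehicle, *AKR1C1* was thus below the minimum of 1 FPKM in ABC1, and its rise there starts near the floor. Over the alternatives, the adjusted p by limma ranged from 0.0295 to 0.172 for *CBR3* and from 0.0303 to 0.170 for *AKR1C1*, and neither was called with a pseudocount of 0.1, with the replicate block or when any 1 library was left out, *CBR3* also not without the minimum.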

How the results depend on the processing

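The calls of *PGD*, *TALDO1* and *ME1* in HCC4006 held under every alternative tried, and those of *TKT* and *RPE* failed where stated beside them. The calls of *PRPS1* and *PRPS2* in HCC4006 were lost under 2 and 1 of 11 alternatives (adjusted p up to 0.0621 and 0.0622, limma), and those of *MTHFD2*, *CBR3*, *AKR1B10* and *TXNRD1* there under none. The 0 calls lower of the 8 genes in HCC4006 without the minimum and in the model of all 8 libraries refer to *RPE*. When each library was left out, 0 to 1 of the 8 genes were called lower there. For the difference between the responses, 1 of the 8 genes was called higher, *TALDO1*, without the minimum and with median-of-ratios scaling. Leaving out each library turned the sign of small values, all uncalled. In ABC1, *RPIA* ranged from -0.21 to 0.16, *IDH1* from -0.042 to 0.36, *NADK* from -0.043 to 0.21, *PGM2* from -0.62 to 0.12, *PGAM1* from -0.37 to 0.084, *LDHA* from -0.50 to 0.16 and *PFKP* from -0.39 to 0.56. In HCC4006, *IDH1* ranged from -0.030 to 0.23. The difference between the responses ranged from -0.13 to 0.30 for *TKT*, from -0.26 to 0.14 for *IDH1* and from -0.35 to 0.011 for *RPE*, and the vehicle difference of *PGD* from -0.014 to 0.39.

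The number of all genes called in ABC1 was 152, and 0 without the minimum (29470 genes tested), 231 with a minimum of 5 FPKM, 299 with median-of-ratios scaling, 33 without the trend, 1567 in the model of all 8 libraries and 18 to 69 when each library was left out. In HCC4006 it was 2591, and 370 without the minimum and 634 to 1028 with each library left out. For the difference between the lines it was 87, and 20 with a pseudocount of 0.1, 403 without the minimum and 4 to 41 with each library left out. The causes of these shifts were not tested.

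Nothing in the labels says that equal replicate numbers mark a shared batch. The deviations of same-numbered libraries from their group means correlated with r = 0.258 across genes in ABC1 and 0.054 in HCC4006. With the replicate number as a block, 2348 genes were called in ABC1, 2 of the 8 genes higher (*TKT*, adjusted p = 0.00458, and *PGD*, adjusted p = 0.0135) and 1 lower (*RPE*, adjusted p = 0.0332, limma), and 3 genes for the difference between the lines. The block changed no call of the 8 genes in the other comparisons.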
